A study of Mus musculus with 12 samples.

Results

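The endoderm lineage genes examined here are 10 genes in common use as markers of endoderm, the germ layer that forms gut, liver and pancreas, and of the extraembryonic endoderm that lines the yolk sac. They were Sox17, Gata4, Gata6, Foxa1, Foxa2, Hnf4a, Afp, Ttr, Apoa1 and Apob. They were listed by name, with earlier results of these data known. Each had 1 probe set with a single gene symbol, so all 10 of 10 were found among 19938 genes. Of the 10, 8 passed the filter on dim genes and were tested among 14953 genes. Afp and Apob did not pass it.

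Expression was measured with 1-colour whole-transcript arrays in day 16 neurons grown from D3, a mouse embryonic stem cell line. The cells had gone through embryoid bodies, aggregates grown without the self-renewal factor LIF, in which endoderm can form beside neural cells. The 4 groups were a line with knockdown of the protein arginine methyltransferase PRMT1 (siPRMT1), a line with knockdown of PRMT8 (siPRMT8), a scrambled-sequence control line (siSCR) and unmodified D3 cells. Each group had 3 arrays labelled as biological replicates, so 12 arrays limit the precision of every value. The scrambled line controls for the modification and D3 does not. All 4 groups come from 1 parental line, and the labels give each modified group as 1 line without saying whether it was a clone, so a line's own history and its knockdown cannot be told apart. Nothing in the labels says that the replicates were differentiated separately, so a p-value here measures only array-to-array spread, which may be technical.

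Each array read a whole culture, so fewer cells of a type and less RNA per cell cannot be told apart. The targeted gene Prmt1 averaged 7.75 ± 0.185 in siPRMT1, against 8.82 ± 0.067 in siSCR (deposited log2 value, SD, n = 3 each). Prmt8 averaged 6.35 ± 0.156 in siPRMT8, against 6.96 ± 0.313 in siSCR (log2, SD, n = 3 each), and the 6.64 ± 0.273 of siPRMT1 lay between them. The mean over 15 neuronal markers was 8.13 to 8.37 in the siPRMT1 arrays, 8.27 to 8.50 in siPRMT8, 8.40 to 9.48 in siSCR and 9.43 to 9.56 in D3. The mean over 10 pluripotency (stem cell) genes was 9.07 to 9.93 in siPRMT1, 9.33 to 9.59 in siPRMT8, 9.52 to 9.80 in siSCR and 9.36 to 9.47 in D3. Against siSCR 11.6% of all tested genes fell and 7.18% rose in siPRMT1, and 13.2% fell and 10.7% rose in siPRMT8. Of the 15 neuronal markers 11 fell and 0 rose in siPRMT1 against siSCR, and 9 fell and 1 rose in siPRMT8 against siSCR. Of 9 astrocyte markers 7 and 6 fell, and 1 rose in each. The part of these changes in the endoderm results was not tested. On the first principal component siSCR replicate 1 (0.105) lay between the knockdown arrays (13.6 to 25.7) and the other control arrays (-26.2 to -21.6). siPRMT1 replicate 2 lay farthest toward the knockdown side and had the narrowest spread, with an interquartile range of 2.89 against 2.93 to 3.13 in the other 11 arrays. Changes in the results of the 10 members from leaving out these 2 arrays are given. For the wider lists only some such changes are given.

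Endoderm is specified by transcription factors that act in sequence. The GATA factors Gata4 and Gata6 and the SRY-box factor Sox17 act early and direct stem cells toward extraembryonic endoderm. The forkhead factors Foxa1 and Foxa2 open chromatin at endodermal genes, and with the nuclear receptor Hnf4a they sustain the secreted products of yolk sac and liver, here Afp, Ttr, Apoa1 and Apob. Several of these genes have other roles in neural cultures: Foxa1 and Foxa2 also mark the floor plate, the ventral midline of the neural tube, Ttr is made by the choroid plexus, and Gata4 and Gata6 also mark cardiac mesoderm.

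Over the 12 arrays the span of single endoderm genes was 0.36 to 0.88 log2 units, and 0 of 10 spanned 1 unit, the minimum set for naming genes of like pattern. The spans of all tested genes were not computed, so whether these are small for the series is not known. Of the 8 tested, Gata6, Foxa1 and Sox17 differed among the 4 groups (limma moderated F test, adjusted p = 0.00949, 0.0114 and 0.0132), where 30.6% of all tested genes did. Gata4 just missed the threshold (adjusted p = 0.0519). The other 4, Foxa2 (0.133), Hnf4a (0.219), Ttr (0.27) and Apoa1 (0.426), did not pass. These 8 passed the filter on their mean over all arrays, which takes no account of group.

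**Figure D1:**
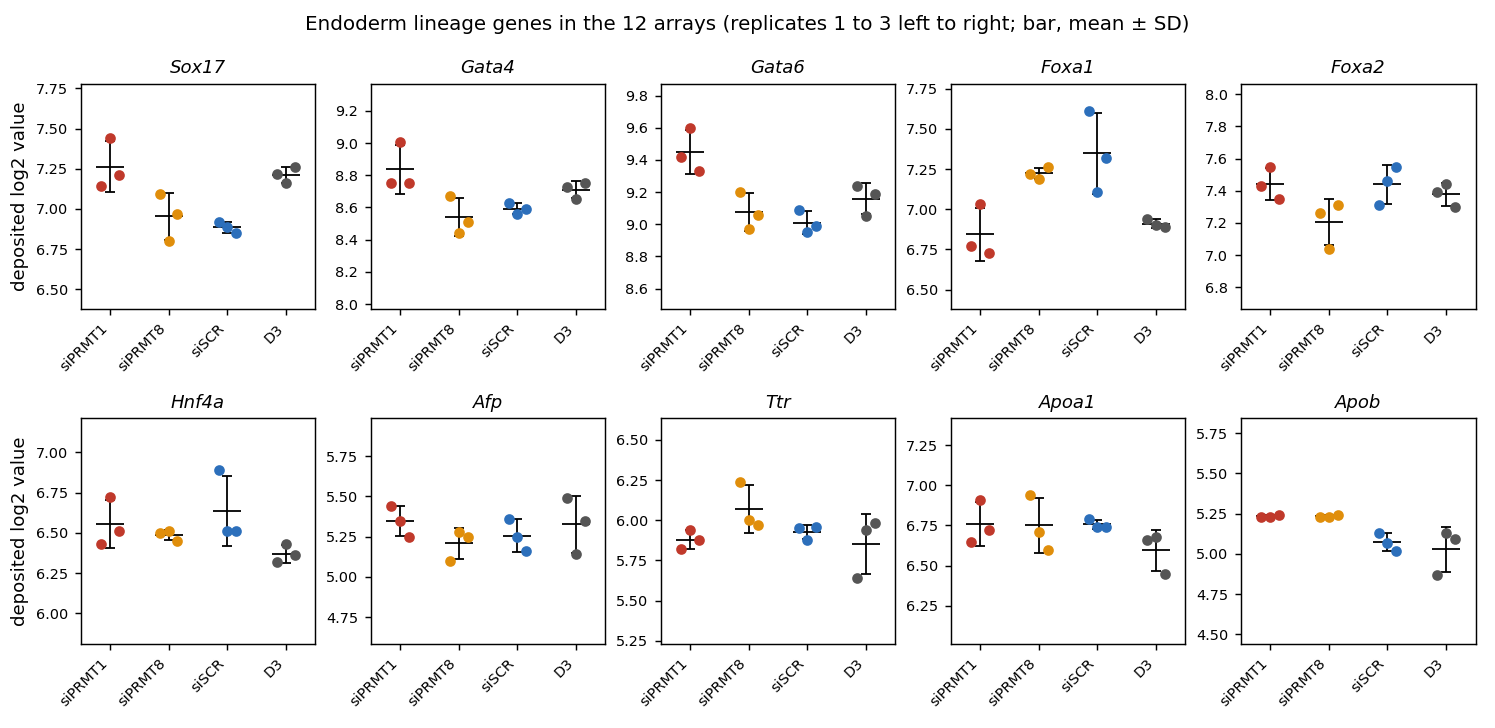
Deposited log2 values of the 10 endoderm genes in siPRMT1, siPRMT8, siSCR and D3, 1 point per array with replicates 1 to 3 left to right, and bars for the mean ± SD (n = 3). Every panel has the same height in log2 units, so panels can be compared for spread but not for level. Gata6 was highest in the 3 siPRMT1 arrays (9.33 to 9.60), and the 4 secreted products in the lower row showed no group apart from all others.

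In siPRMT1 against siSCR, Gata6 and Sox17 rose and Foxa1 fell. These were 2 higher and 1 lower of 8 tested members, where 7.18% of all genes were higher and 11.6% lower (18.7% in all). Gata6 read 9.42, 9.60 and 9.33 in the siPRMT1 arrays, against 9.09, 8.95 and 8.99 in the siSCR arrays. The groups did not overlap, and Gata6 rose 1.36-fold (log2 0.44, SE 0.0866, adjusted p = 0.00604, n = 3 per group, limma). Sox17 read 7.14, 7.44 and 7.21 in siPRMT1, against 6.92, 6.89 and 6.85 in siSCR. Again every siPRMT1 array lay above every siSCR array, and Sox17 rose 1.30-fold (log2 0.37, SE 0.0882, adjusted p = 0.0138, limma). Gata4, the paralog of Gata6, read 8.75, 9.01 and 8.75 in siPRMT1, against 8.63, 8.56 and 8.59 in siSCR. It lay 0.25 higher without overlap, but missed the threshold (SE 0.0819, adjusted p = 0.0573, limma). Gata4 passed with the lowest 50% of genes left out (adjusted p = 0.0454) and with trend and robust variance (0.0487). Sox17 was lost without siSCR replicate 3 (0.36, adjusted p = 0.0562). When only these 2 groups were fitted, Gata6 (adjusted p = 0.0559), Sox17 (0.0796) and Foxa1 (0.0975) were all lost.

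Against unmodified D3 cells, Gata6 alone of the 8 tested members rose in siPRMT1, 1 higher and 0 lower, where 11.7% of all genes were higher and 14.7% lower (26.4% in all). The D3 arrays read 9.24, 9.05 and 9.19 for Gata6, all below the 3 siPRMT1 arrays, and the difference was 0.29 (1.22-fold, SE 0.0866, adjusted p = 0.028, limma). That call was lost without D3 replicate 2 (0.24, adjusted p = 0.11), without D3 replicate 3 (0.30, adjusted p = 0.0634), without siPRMT1 replicate 2 (0.22, adjusted p = 0.0695) and when only these 2 groups were fitted (0.29, adjusted p = 0.0576). Sox17 read 7.22, 7.16 and 7.26 in D3, inside the range of the siPRMT1 arrays. Its difference of 0.0483 in siPRMT1 minus D3 had a 95% interval of -0.14 to 0.24, and Gata4 lay 0.13 higher with an interval of -0.0523 to 0.31. The lower Sox17 of siSCR against D3 (log2 -0.33, SE 0.0882) did not pass after adjustment over all genes (adjusted p = 0.222), in a comparison where 0 of 8 members and 0.154% of all genes did (0.0602% higher and 0.0936% lower, limma), with 3 members at an unadjusted p under 0.05.

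In siPRMT8 these 3 genes stayed near siSCR. Gata6 read 9.20, 8.97 and 9.06, Sox17 7.09, 6.80 and 6.97, and Gata4 8.67, 8.44 and 8.51 in the siPRMT8 arrays, and each range overlapped that of siSCR. The differences from siSCR were 0.0663 for Gata6 (95% interval -0.12 to 0.26), 0.0658 for Sox17 (-0.13 to 0.26) and -0.0516 for Gata4 (-0.23 to 0.13). Against D3, Sox17 fell in siPRMT8 by 0.26 on the log2 scale (1.20-fold, SE 0.0882, adjusted p = 0.0463, limma). It was the 1 lower member of 8 tested, with 0 higher, where 15.2% of all genes were lower and 12.5% higher (27.7% in all). This call lay at the threshold and was lost in 8 of the 12 fits that left out 1 array, with values of -0.33 to -0.19 over the 12 fits and adjusted p of 0.0148 to 0.167.

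Set directly against each other, siPRMT1 lay above siPRMT8 in Gata6 (log2 0.37, SE 0.0866), Sox17 (0.31, SE 0.0882) and Gata4 (0.30, SE 0.0819), and the arrays did not overlap for any of the 3. The arrays of Foxa1, Foxa2 and Ttr did not overlap either. The share of all genes without overlap was not counted in this or any other comparison. None of Gata6, Sox17 and Gata4 passed after adjustment over all genes (adjusted p = 0.132, 0.211 and 0.201, limma). In this comparison 0 of 8 members and 0.154% of all genes passed (0.0869% higher and 0.0669% lower), and 5 members had an unadjusted p under 0.05. Without both siSCR replicate 1 and siPRMT1 replicate 2, a setting chosen after seeing the data, Gata6 (0.30, adjusted p = 0.031) and Foxa1 (-0.47, adjusted p = 0.00269) passed. Without siPRMT1 replicate 2 alone Foxa1 passed (-0.47, adjusted p = 0.0342).

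**Figure D2:**
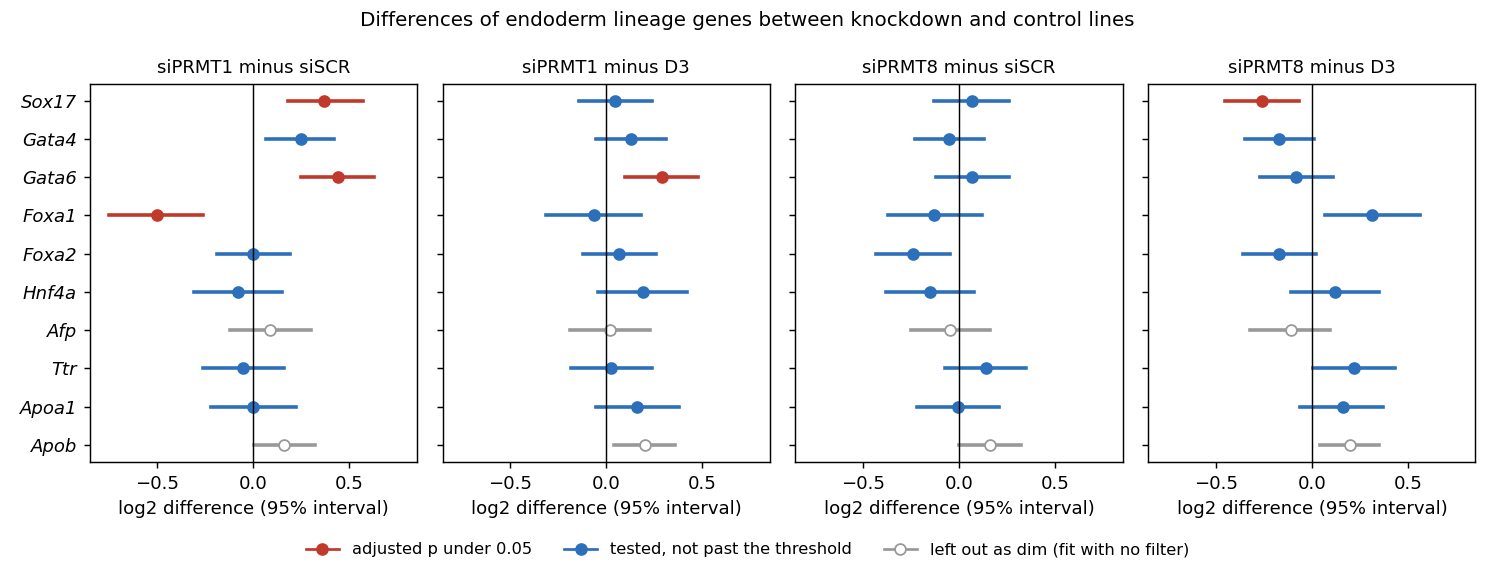
Log2 differences of the 10 endoderm genes in 4 comparisons, knockdown minus control, with 95% intervals that are not adjusted for the number of genes (limma, n = 3 per group). Red marks an adjusted p under 0.05, blue a tested gene past no threshold, and open grey circles the dim genes Afp and Apob from the fit with no filter. Gata6 is red against both controls in siPRMT1, and Foxa1 is red against siSCR but lies at -0.0637 against D3.

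Gata6, Gata4 and Sox17 moved together from array to array. Across the 12 arrays Pearson's r was 0.91 for Gata4 with Gata6, 0.92 for Gata4 with Sox17 and 0.85 for Gata6 with Sox17, the 3 highest of the 45 pairs of members. With each group's mean taken out, r was 0.93, 0.95 and 0.84, and these were no longer the 3 highest. Foxa1 with Hnf4a was then 0.85, above Gata6 with Sox17. Foxa1 was then also positive with Gata6 (0.65), Gata4 (0.57) and Sox17 (0.47), where across the 12 arrays it was -0.50, -0.46 and -0.64. The 12 points share 4 lines and, within an array, any shift of that array, so these values are a description. Both siPRMT1 replicate 2 and siSCR replicate 1 were the highest of their group for 8 of the 10 members, where they were so for 42.5% and 46.3% of all tested genes. The members of siSCR replicate 1 had a median of 0.0747 above the other 2 siSCR arrays, where that over all tested genes was 0.0358. siPRMT1 replicate 2 had a median of 0.224 above the other 2 siPRMT1 arrays, where the median over all tested genes was 0.00315. This is the array with the narrowest spread, and its part in the result was not tested beyond the fits without it. Without it Gata6 lay 0.37 and Sox17 0.29 above siSCR, and both still passed.

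**Figure D3:**
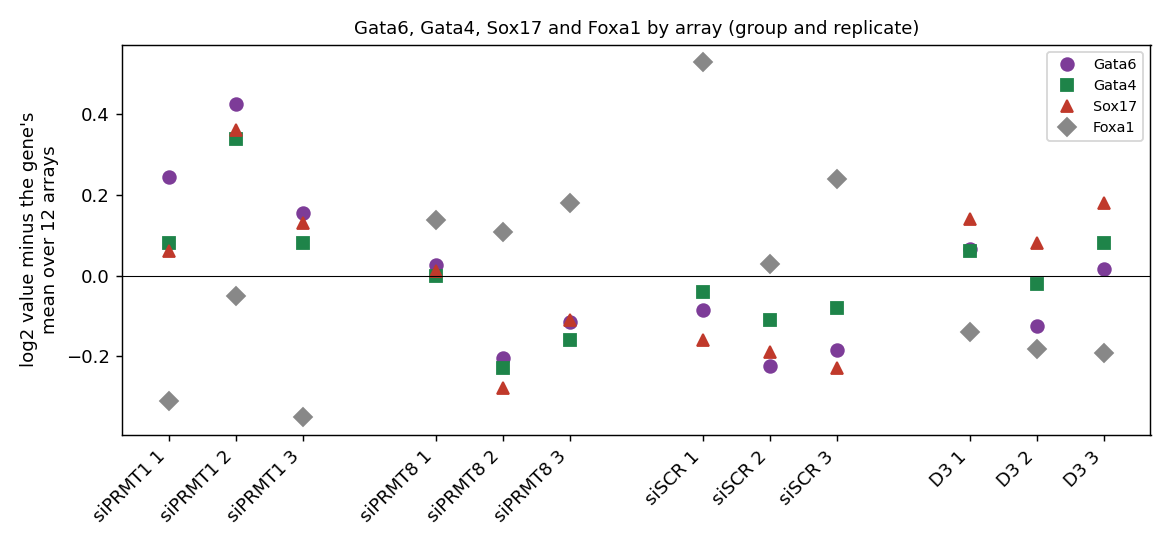
Log2 value minus the gene's mean over 12 arrays (vertical axis) for Gata6, Gata4, Sox17 and Foxa1 in each array, by group and replicate. Gata6, Gata4 and Sox17 lie close together in most arrays and are highest in siPRMT1 replicate 2, whereas Foxa1 is highest in siSCR replicate 1 (7.61).

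The other extraembryonic endoderm genes were counted from a list of 20, of which 18 were measured and tested, the 3 members Gata4, Gata6 and Sox17 among them. In siPRMT1 against siSCR 7 of the 18 rose and 0 fell, where 7.18% of all genes rose and 11.6% fell. The median log2 difference of the 18 was 0.264, where the median over all genes was 0.0356. Beside Gata6 and Sox17 the risers were the endocytic adaptor Dab2 (0.53, SE 0.084, adjusted p = 0.00229), the parathyroid hormone receptor Pth1r (0.31), the growth factor receptor Pdgfra (0.30) and the laminin chains Lama1 (0.29) and Lamb1 (0.28), the last 4 of them named after their values were seen. The basement membrane collagens Col4a1 (0.28, adjusted p = 0.062) and Col4a2 (0.20, adjusted p = 0.187) did not pass. With the mean of its probe sets, Dab2 was only 0.34 above siSCR and still passed (adjusted p = 0.00578, limma). Of the list, Dab2 followed Gata6 most closely over the 12 arrays (r = 0.95), and Lama1 followed Sox17 most closely (r = 0.93). The count of 7 was 2 without siSCR replicate 3, 4 without siPRMT1 replicate 3, and 1 when only the 2 groups were fitted. Without both siSCR replicate 1 and siPRMT1 replicate 2, chosen after seeing the data, 4 rose and 2 fell.

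Against D3 fewer of the list passed in siPRMT1. There Gata6 and Dab2 (0.31, adjusted p = 0.0187) rose and the growth factor Bmp2 fell (-0.37, adjusted p = 0.0487), 2 higher and 1 lower of 18, with a median of 0.0847. Of all genes 11.7% were higher and 14.7% lower in that comparison. None of the 18 rose without D3 replicate 2, and 1 rose without D3 replicate 3 or without siPRMT1 replicate 2. Lama1 (-0.0255) and Lamb1 (-0.0185) lay at the level of D3. In siPRMT8 0 of 18 passed against siSCR (median -0.0162), where 10.7% of all genes were higher and 13.2% lower. However, 2 rose without siPRMT1 replicate 2, and 1 rose and 2 fell without siSCR replicate 1. Without both of these arrays, chosen after seeing the data, Dab2 rose against siSCR (0.25, adjusted p = 0.0137, limma). Against D3 12.5% of all genes rose and 15.2% fell in siPRMT8. Of the 18, 4 fell and 0 rose there (median -0.141): Sox17, Lama1 (-0.33), Lamb1 (-0.33) and Pdgfra (-0.36). The count of 4 was 1 without D3 replicate 1, D3 replicate 3 or siPRMT8 replicate 3, and 2 without siPRMT8 replicate 2. The 2 knockdown comparisons with siSCR share its arrays, as do the 2 with D3. The scrambled line itself lay below D3 in the 4 genes that fell in siPRMT8. Its differences from D3 were -0.33 for Sox17, -0.32 for Lama1, -0.30 for Lamb1 and -0.41 for Pdgfra. None of these passed (adjusted p = 0.222, 0.246, 0.252 and 0.106, limma). Over the 18 genes the median of siSCR minus D3 was -0.139, with 0 higher and 0 lower.

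**Figure D4:**
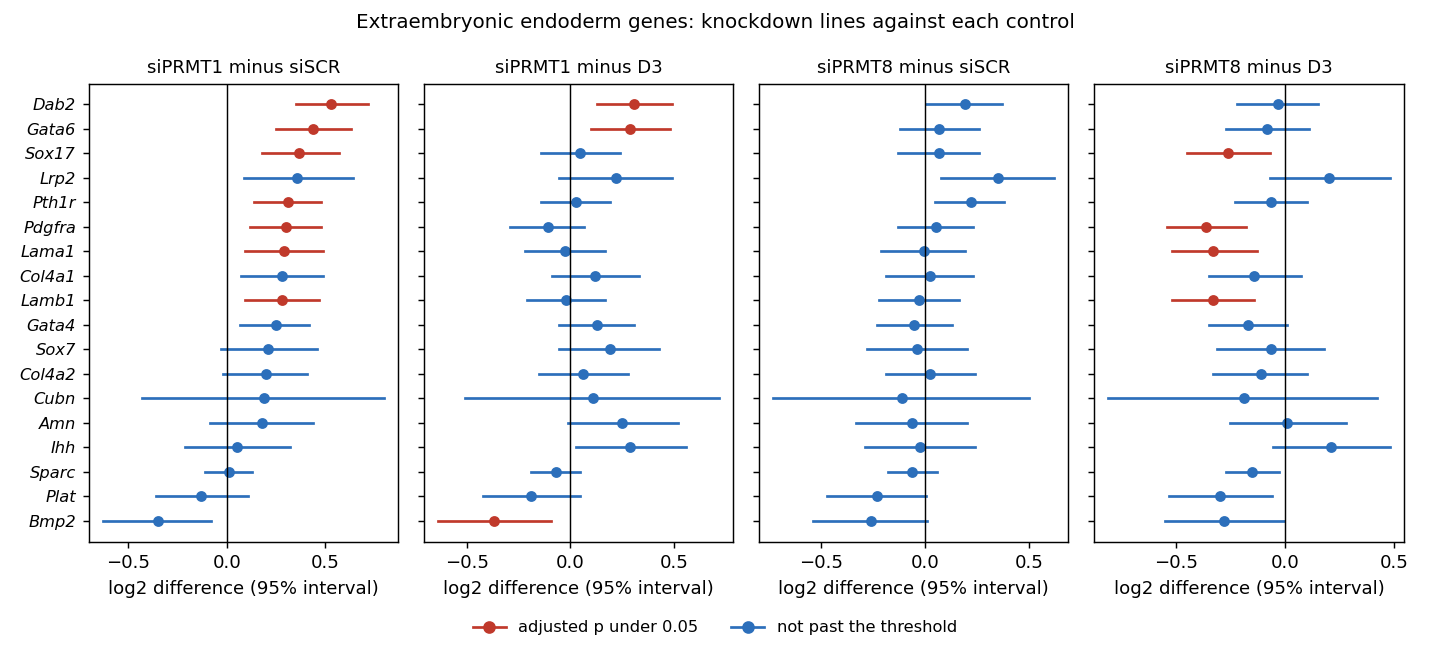
Log2 differences with unadjusted 95% intervals (limma, n = 3 per group) of the 18 tested extraembryonic endoderm genes in siPRMT1 and siPRMT8 against each control, ordered by siPRMT1 minus siSCR. Red marks an adjusted p under 0.05. The 7 red genes of siPRMT1 minus siSCR include Gata6 and Dab2, which are also red and higher against D3.

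Foxa1 went the other way from Gata6 and Sox17 in siPRMT1. Its siPRMT1 arrays read 6.77, 7.03 and 6.73, with 7.22, 7.19 and 7.26 in siPRMT8, 7.61, 7.11 and 7.32 in siSCR and 6.94, 6.90 and 6.89 in D3. The siPRMT1 arrays all lay below the siSCR arrays, and Foxa1 fell by 0.50 (log2 -0.50, 1.42-fold, SE 0.112, adjusted p = 0.0106, limma). The D3 arrays fell inside the siPRMT1 range, and siPRMT1 minus D3 was -0.0637 (95% interval -0.31 to 0.18, adjusted p = 0.697). The scrambled line itself lay 0.44 above D3 without overlap, which did not pass (SE 0.112, adjusted p = 0.206). Its highest array was siSCR replicate 1, and without that array Foxa1 in siPRMT1 was 0.37 lower than siSCR (log2 -0.37) and still passed (adjusted p = 0.0135). In siPRMT8 Foxa1 lay between both controls, 0.13 below siSCR (log2 -0.13, adjusted p = 0.448) and 0.31 above D3, which missed the threshold (SE 0.112, adjusted p = 0.0572). That last difference did pass without siSCR replicate 1 (adjusted p = 0.0159), siSCR replicate 2 (0.0289) or siPRMT1 replicate 2 (0.0294).

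Promoter sequence was looked up in RefSeq (GRCm38.p6) for the 10 members, and 6 matched, Foxa1, Foxa2, Hnf4a, Afp, Apoa1 and Apob. Ttr, Sox17, Gata4 and Gata6 have none here. The 250 bases before the Foxa1 start are shown because Foxa1 had the largest difference of the 10, at chr12:57546112-57546361 on the minus strand, with the forkhead motif TNTTTAC (read on the opposite strand) in capitals.
Foxa1: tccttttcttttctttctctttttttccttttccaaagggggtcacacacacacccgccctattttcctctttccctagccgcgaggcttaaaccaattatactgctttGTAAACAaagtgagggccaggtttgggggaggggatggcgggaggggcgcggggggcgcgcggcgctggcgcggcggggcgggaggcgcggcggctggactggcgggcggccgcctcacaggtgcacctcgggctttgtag
That motif, searched on both strands, was in 10.9% of 32851 promoter windows of this length. It was found in no window of Foxa2, Hnf4a, Afp, Apoa1 or Apob, which says only that these letters are not there. The match in the Foxa1 window is a description and not a site of binding.

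Foxa2, the paralog of Foxa1, did not share its pattern. Its siPRMT1 arrays read 7.43, 7.55 and 7.35, with 7.26, 7.04 and 7.31 in siPRMT8, 7.31, 7.46 and 7.55 in siSCR and 7.39, 7.44 and 7.30 in D3. The siPRMT1 and siSCR means were equal to within 0.000657 (95% interval -0.19 to 0.19). In siPRMT8 no member passed against siSCR, 0 higher and 0 lower of 8, where 10.7% of all genes were higher and 13.2% lower (23.8% in all). Foxa2 was the 1 member with an unadjusted p under 0.05 there, 0.24 lower (log2 -0.24, SE 0.0885, adjusted p = 0.0707, limma). It passed without siSCR replicate 1 (-0.31, adjusted p = 0.0282) and without siPRMT1 replicate 2 (-0.24, adjusted p = 0.0471), an array of neither group that enters through the shared spread.

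Some floor plate and ventral midbrain genes, a list that includes Foxa1 and Foxa2, fell in both knockdown lines, and their part in the Foxa1 difference was not tested. Of 15 listed, 12 were tested. In siPRMT1 against siSCR 6 fell, Foxa1 among them, and 1 rose (median -0.174), where 11.6% of all genes fell and 7.18% rose (median 0.0356). The riser was Th (0.40, adjusted p = 0.0172, limma), which did not pass in siPRMT1 against D3 (0.0235, adjusted p = 0.879). In siPRMT8 against siSCR 4 fell, neither Foxa1 nor Foxa2 among them, and 0 rose (median -0.207), where 13.2% of all genes fell and 10.7% rose (median 0.0119). The midline ligand Shh was at 7.03, 7.03 and 6.87 in siPRMT1 and at 7.03, 7.11 and 7.22 in siPRMT8, against 8.30, 8.00 and 7.94 in siSCR and 7.76, 7.73 and 7.67 in D3. It fell against both controls in both lines, as did the secreted floor plate proteins Spon1 and Ntn1. Spon1 was the lowest of the list in siPRMT1 minus siSCR (-1.68, SE 0.172, adjusted p = 0.00031) and in siPRMT8 minus siSCR (-1.66, adjusted p = 0.000425). The siPRMT8 count of 4 was 7 without siPRMT1 replicate 2 and 9 without both siSCR replicate 1 and siPRMT1 replicate 2. The siPRMT1 count of 6 was 3 when only the 2 groups were fitted.

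Hnf4a, the nuclear receptor of the liver program, read 6.43, 6.72 and 6.51 in siPRMT1, 6.50, 6.51 and 6.45 in siPRMT8, 6.89, 6.51 and 6.51 in siSCR and 6.32, 6.43 and 6.36 in D3. siSCR replicate 1 was the highest of the 12 arrays. No comparison of Hnf4a passed. The difference from siSCR was -0.0816 in siPRMT1 (95% interval -0.31 to 0.15) and -0.15 in siPRMT8 (-0.38 to 0.0779). In the wider hepatocyte nuclear factor list 10 of 15 genes were tested. In siPRMT1 against siSCR 1 of them fell, Foxa1, and 0 rose. In siPRMT8 against siSCR 1 fell, Nr5a2 (-0.54, adjusted p = 0.0372), and 0 rose. Over all genes 11.6% fell and 7.18% rose in siPRMT1 against siSCR, and 13.2% fell and 10.7% rose in siPRMT8. No gene of that list fell in siPRMT8 without any 1 of the D3 arrays, siPRMT8 replicate 1 or 3, or siSCR replicate 2 or 3.

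None of the 4 secreted products of yolk sac and liver passed in any comparison. Afp, the fetal serum protein of yolk sac and liver, read 5.44, 5.35 and 5.25 in siPRMT1, 5.10, 5.28 and 5.25 in siPRMT8, 5.36, 5.25 and 5.16 in siSCR and 5.49, 5.14 and 5.35 in D3. All 4 groups overlapped. Its mean of 5.29 lay under the filter limit of 5.43, and in the fit with no filter its difference from siSCR was 0.0888 in siPRMT1 (adjusted p = 0.566) and -0.0444 in siPRMT8 (adjusted p = 0.814). No detection call accompanies the values, so whether Afp was expressed at all could not be read from them.

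The 250 bases before the Afp start, chr5:90490464-90490713 on the plus strand, are shown because Afp is a classic marker of yolk sac and fetal liver. Capitals mark GTTAAT, part of the HNF1 recognition motif (both strands, in 6.43% of windows). They also mark TATAAA, the letters of a TATA box (sense strand, in 7.59%), beginning at base -7 from the annotated start. Both matches are a description and not sites of binding.
Afp: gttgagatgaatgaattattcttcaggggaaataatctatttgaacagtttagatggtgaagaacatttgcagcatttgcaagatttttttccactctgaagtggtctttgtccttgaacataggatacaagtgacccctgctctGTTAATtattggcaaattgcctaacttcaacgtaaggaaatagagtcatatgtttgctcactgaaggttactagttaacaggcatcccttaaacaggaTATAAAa
The GATA motif AGATAA, searched on both strands and present in 9.99% of windows, was in neither the Afp nor the Foxa1 window.

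Apob, the large structural protein of lipoprotein particles, was also under the filter limit (mean 5.14). Its siPRMT1 arrays were at 5.23, 5.23 and 5.24 and its siPRMT8 arrays at 5.23, 5.23 and 5.24, against 5.13, 5.07 and 5.02 in siSCR and 4.87, 5.13 and 5.09 in D3. Every knockdown array lay above every control array, by little, and the share of all genes that did so was not counted. The knockdown arrays were almost identical, with an SD of 0.00544 in siPRMT1 and 0.00774 in siPRMT8. In siSCR the SD was 0.0579 and in D3 0.138. Whether such values are a floor of the measurement was not tested. In the fit with no filter the difference from siSCR was 0.16 in siPRMT1 (adjusted p = 0.17) and 0.16 in siPRMT8 (adjusted p = 0.164), and neither passed.

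Ttr, a carrier of thyroid hormone and retinol-binding protein, read 5.82, 5.94 and 5.88 in siPRMT1, 6.24, 6.0 and 5.97 in siPRMT8, 5.95, 5.88 and 5.96 in siSCR and 5.64, 5.94 and 5.98 in D3. The groups overlapped except that the siPRMT8 arrays lay above siPRMT1 and siSCR, and no comparison passed. Ttr in siPRMT8 was 0.22 above D3 (95% interval 0.00756 to 0.43, adjusted p = 0.115) and 0.14 above siSCR (-0.0725 to 0.35, adjusted p = 0.33). The choroid plexus is the other usual source of Ttr in brain. Of 8 tested genes of its list, Ttr itself among them, 0 passed in either knockdown against siSCR. Of all genes 18.7% passed in siPRMT1 and 23.8% in siPRMT8. Without siPRMT1 replicate 2, 1 choroid plexus gene was higher in siPRMT1 and 2 were lower in siPRMT8. Against D3 1 rose in siPRMT1, Slc4a5 (0.34, adjusted p = 0.0183, limma), where 26.4% of all genes changed. In siPRMT8 0 passed against D3, where 27.7% of all genes changed. Apoa1, the main protein of high-density lipoprotein, read 6.65, 6.91 and 6.72 in siPRMT1, 6.94, 6.71 and 6.60 in siPRMT8, 6.79, 6.74 and 6.74 in siSCR and 6.66, 6.68 and 6.45 in D3. Its means in the knockdown lines lay within 0.0075 of siSCR, with intervals of -0.22 to 0.22 in siPRMT1 and -0.22 to 0.21 in siPRMT8.

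In the list of 20 yolk sac and liver secreted proteins, 18 were measured and 10 tested, and the albumin gene Alb was among the dim ones (mean 4.21). Against siSCR 11.6% of all genes fell and 7.18% rose in siPRMT1, and 13.2% fell and 10.7% rose in siPRMT8. In siPRMT1 against siSCR 3 of the 10 fell and 0 rose, and the same 3 genes fell in siPRMT8 against siSCR, a comparison that shares the siSCR arrays. They were the adhesion protein Vtn (-1.03 in siPRMT1, adjusted p = 0.00319, and -1.11 in siPRMT8, adjusted p = 0.00186), the fibrinogen chain Fgb (-0.81, adjusted p = 0.0158, and -0.99, adjusted p = 0.00525) and the retinol-binding protein Rbp4 (-0.29, adjusted p = 0.0398, and -0.27, adjusted p = 0.0432). Against D3 3 of the 10 rose and 2 fell in siPRMT1, where 11.7% of all genes rose and 14.7% fell. In siPRMT8 1 rose and 2 fell against D3, where 12.5% of all genes rose and 15.2% fell. Vtn (-0.70 and -0.78) and Fgb (-0.86 and -1.04) fell again against D3 in siPRMT1 and siPRMT8. Rbp4 instead rose against D3 in both (0.34, adjusted p = 0.0138, and 0.36, adjusted p = 0.0102), and siSCR itself lay 0.62 above D3 (adjusted p = 0.0261). The other risers in siPRMT1 against D3 were Apoa2 (0.30, adjusted p = 0.0291) and Trf (0.32, adjusted p = 0.026). Fgb in siPRMT1 was lost without siSCR replicate 2 (adjusted p = 0.0507) or 3 (0.0724). The fall of Rbp4 was lost in most fits that left out 1 array, and its rise in siPRMT1 against D3 was lost without D3 replicate 2 (0.0616) or siPRMT1 replicate 3 (0.0576).

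Of 14 tested definitive and anterior endoderm genes 1 rose and 2 fell in siPRMT1 against siSCR, where 7.18% of all genes rose and 11.6% fell: Sox17 rose, and Foxa1 fell with the LIM homeobox factor Lhx1 (-0.71, adjusted p = 0.0179). In siPRMT8 against siSCR, where 10.7% of all genes rose and 13.2% fell, the chemokine receptor Cxcr4 rose (0.91, adjusted p = 0.0116) and Lhx1 fell (-0.60, adjusted p = 0.0309). Without siPRMT1 replicate 2 these counts were 4 higher and 2 lower in siPRMT1 and 3 higher and 2 lower in siPRMT8, without siSCR replicate 3 they were 0 higher and 1 lower and 1 higher and 0 lower, and without both siSCR replicate 1 and siPRMT1 replicate 2 they were 6 higher and 2 lower in siPRMT1 and 5 higher and 2 lower in siPRMT8. Of 12 gut, pancreas and lung endoderm genes 1 rose and 4 fell in siPRMT1, led by the galectin Lgals4 (-1.21, adjusted p = 0.0128) and the keratin Krt19 (-0.84, adjusted p = 0.0159), and 1 rose and 1 fell in siPRMT8 against siSCR. Neither Lgals4 (-0.0462, adjusted p = 0.919) nor Krt19 (-0.20, adjusted p = 0.49) passed in siPRMT1 against D3, and siSCR lay above D3 by 1.16 in Lgals4 and 0.64 in Krt19 without passing (adjusted p = 0.174 and 0.309). In siPRMT8 against D3 both rose (Lgals4 0.85, adjusted p = 0.0411, and Krt19 0.88, adjusted p = 0.00807). Against D3, 1 of the 12 rose and 2 fell in siPRMT1, where 26.4% of all genes changed, and 3 rose and 4 fell in siPRMT8, where 27.7% changed. Over the fits that left out 1 array the siPRMT8 counts against D3 were 1 to 5 higher and 1 to 4 lower, with 1 higher and 1 lower without D3 replicate 1, D3 replicate 3 or siPRMT8 replicate 3. In siPRMT1 against siSCR the 4 lower genes were 2 without siPRMT1 replicate 1 or 3, or without siSCR replicate 2 or 3. Of 14 cardiac mesoderm genes, the other tissue of Gata4 and Gata6, 2 rose and 0 fell in siPRMT1 against siSCR, where 7.18% of all genes rose and 11.6% fell. The risers were Gata6 and Isl1 (0.51), and the cardiac factor Nkx2-5 did not pass (0.0546, adjusted p = 0.722). Without siPRMT1 replicate 2 the 2 risers were 4, and none of the list passed when only the 2 groups were fitted.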

How the data were processed

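Total RNA of 12 samples was hybridised to 1-colour arrays with biotin label, per the labels' protocols. The deposited values are log2 probe set summaries (0.97 to 13.54), normalized between arrays by the authors with a method not given in the sources used here, and array medians lay within 0.023. Of 35556 probe sets, 21789 had 1 gene symbol, 1621 several and 12146 none. Symbols came from the platform annotation, and 21698 matched RefSeq by gene ID. The probe set with the highest mean over the 12 arrays stood for each of 19938 genes, and the lowest 25% by mean (under 5.43) were left out, leaving 14953. Linear models over all 4 groups used limma 3.58.1 under R 4.3.3 (moderated statistics, Benjamini-Hochberg over all tested genes, threshold 0.05), a procedure tested on simulated data. Probe sets carry no detection call or depth. The members and gene lists were chosen with earlier results of these data known. Named genes were all 10 members, Prmt1, Prmt8 and, per list and comparison, up to 3 higher and 3 lower genes past the threshold with the largest change, plus listed genes whose role bears on a member. Same-numbered arrays of D3 and siSCR deviated together (r = 0.161, 0.194 and 0.107), the only pair of groups in which all 3 numbers did so. Alternatives were quantile normalisation, other filters, the mean of a gene's probe sets, only the groups compared, trend and robust variance, a replicate block and leaving out each array.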

Additional observations from a re-analysis of the deposited data

How the results depend on the processing

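No difference that passed changed sign under any alternative run. Of 954 alternative values of single members, 891 were counted as kept, 20 no longer passed, 14 newly passed and 29 changed sign, all of them differences that did not pass. For the 8 tested members, kept means the same direction and side of the threshold. For Afp and Apob, which had no main test, it means within the gene's pooled SD of the difference in group means. With only the groups compared, members called were 0 in siPRMT1 minus siSCR (against 3), 0 in siPRMT1 minus D3 (against 1) and 2 in siPRMT8 minus D3 (against 1); fewer samples entered that fit. siPRMT8 minus D3 also had 0 under quantile normalisation, with no filter, with trend and robust variance and with the replicate block, and 2 with the lowest 50% left out. The replicate block changed no other count of members called, including 0 in siSCR minus D3, the 1 pair of groups whose numbers paired. Without both displaced arrays, chosen after seeing the data, counts were 1 in siPRMT8 minus siSCR, 2 in siPRMT8 minus D3 and 2 in siPRMT1 minus siPRMT8. Leaving out 1 array gave 2 to 3 members in siPRMT1 minus siSCR, 0 to 1 in siPRMT8 minus siSCR, 0 to 1 in siPRMT1 minus D3, 0 to 2 in siPRMT8 minus D3, 0 to 1 in siPRMT1 minus siPRMT8, 0 in siSCR minus D3 and 3 to 4 in the F test. Signs turned without both displaced arrays in siPRMT1 minus siSCR for Apoa1 (-0.0565) and Foxa2 (-0.1188), in siPRMT8 minus siSCR for Apoa1 (0.0099) and Foxa1 (0.0017), in siPRMT1 minus D3 for Ttr (-0.0018) and Sox17 (-0.0412), and in siPRMT1 minus siPRMT8 for Apoa1 (-0.0664) and Hnf4a (-0.0154). Under quantile normalisation they turned for Apoa1 in siPRMT8 minus siSCR (0.0022) and Ttr in siPRMT1 minus D3 (-0.0232). With 1 array left out, the range crossed 0 in siPRMT1 minus siSCR for Apoa1 (-0.0739 to 0.0566), Foxa2 (-0.0651 to 0.0559) and Hnf4a (-0.1659 to 0.0467). It did so in siPRMT8 minus siSCR for Apoa1 (-0.1037 to 0.0695), Sox17 (-0.0016 to 0.1398) and Foxa1 (-0.2449 to 0.0017), and in siPRMT1 minus D3 for Ttr (-0.0792 to 0.0909) and Sox17 (-0.0412 to 0.1104). The same held in siPRMT1 minus siPRMT8 for Apoa1 (-0.0685 to 0.1048) and Hnf4a (-0.0154 to 0.1297), and in siSCR minus D3 for Ttr (-0.0262 to 0.1439). Apart from what a fit's fewer samples or genes account for, the cause was not tested. The values carry no signal over background, so how well the dim genes Afp and Apob were measured is unknown.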
